A study of Mus musculus with 5 samples.

Results

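Cd28, Ctla4 and Icos are neighbours on mouse chromosome 1 and encode 3 related receptors of T cells. RNA polymerase II (Pol II) was measured over them by CUT&Tag, a method that tethers a transposase to an antibody bound to its target, so that DNA beside the protein is tagged and read. The stretch examined ran from 3 kb upstream of Cd28 to the 3′ end of Icos, chr1:60713800-61000320 in GRCm38 (mm10), a length of 286.5 kb. All merged peaks with their midpoint in it were taken, which gave 63 of the 56615 peaks of the series, and none was dropped for a low count. Of these, 28 belonged to a gene or its 3 kb upstream (6 to Cd28, 11 to Ctla4 and 11 to Icos), 23 lay between Cd28 and Ctla4, and 12 lay between Ctla4 and Icos. The 3 genes were among 13542 genes with a peak.

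The nuclei were those of regulatory T (Treg) cells, sorted as CD3+CD4+Foxp3-YFP+ cells from the spleen of C57BL/6 mice aged 8 weeks, and each library was made from 80000 nuclei. All mice carried Foxp3-driven Cre-YFP and received IL-2c (1 μg IL-2 bound to 5 μg of an antibody to it, which expands Treg cells) on 3 days, and were killed 48 h after the last dose. Control mice (Ctrl) were Foxp3CreSetd2flox/+ and so carried 1 floxed Setd2 allele, and knockout mice (KO) were Foxp3CreSetd2flox/flox. Setd2 places the trimethyl mark on lysine 36 of histone H3, and Cre under Foxp3 control limits its loss to cells that have expressed Foxp3. There were 2 libraries per genotype. The labels give the sex as pooled, and the study pooled cells of 2 mice before sorting. The study counts each library as a biological replicate. Whether both libraries of a genotype shared a pool of mice is not stated, and if so the p-values would measure technical spread alone. The comparison asked whether Pol II occupancy over this receptor cluster differed when Treg cells lacked Setd2.

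CD28, CTLA-4 and ICOS form a family of receptors that arose by gene duplication. CD28 and CTLA-4 bind the same ligands, CD80 and CD86, on antigen-presenting cells. CD28 adds a costimulatory signal to that of the T cell receptor, whereas CTLA-4 binds these ligands more tightly, removes them from the presenting cell and restrains T cell activation. ICOS binds its own ligand, ICOSL, and signals mainly through PI3 kinase. Treg cells express CTLA-4 constitutively and depend on it for suppression, and they also use CD28 and ICOS for their maintenance.

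The libraries held between 4489646 (KO 2) and 13351007 (KO 1) counts in all, and the cluster took 0.231% of the total (Ctrl 1), 0.196% (Ctrl 2), 0.241% (KO 1) and 0.216% (KO 2). Library 1 was the deeper in both groups. Setd2 itself, which was floxed, had normalized counts of 525 and 513 in Ctrl against 458 and 560 in KO over its 9 peaks (log2 fold change -0.04 ± 0.19, SE), so the Pol II counts did not distinguish the genotypes there. Pol II over the gene does not test the deletion, since a deleted exon need not alter occupancy elsewhere in the gene. All 5 T and Treg cell markers (Foxp3, Il2ra, Ikzf2, Cd4 and Cd3e) had peaks, with summed normalized counts of 20721 to 24996 in Ctrl and 20874 to 24849 in KO. Of the markers of other cells, 0 of 2 CD8 T cell genes, 0 of 3 myeloid genes, 0 of 2 NK cell genes and 1 of 3 B cell genes (Cd79a, 67.7 to 121) had a peak.

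Occupancy was concentrated in a few long domains. The peak with the most counts covered the start site and the entire coding part of Ctla4 and ran on for 5313 bp past its annotated 3′ end (chr1:60908581-60921145, 12565 bp), and it alone held 30.1% of the normalized count of the cluster. A longer peak of 14616 bp inside Cd28 (chr1:60748894-60763509) was next, and the first 2 together held 47.5%. Another domain, of 6591 bp, covered the last part of Cd28, and one of 5954 bp began 421 bp beyond the Cd28 3′ end and overlapped the lincRNA genes Gm11579 and 2310016D23Rik, so that reads there cannot be credited to Cd28 or to either of them. Peaks of at least 5 kb made up 4 of the 63 peaks here (6.35%) and 0.982% of all peaks. Per kb of peak, the Ctla4 domain had 416 normalized counts, higher than 99.0% of all peaks, and the Cd28 domain had 208, higher than 88.7%.

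**Figure D1:**
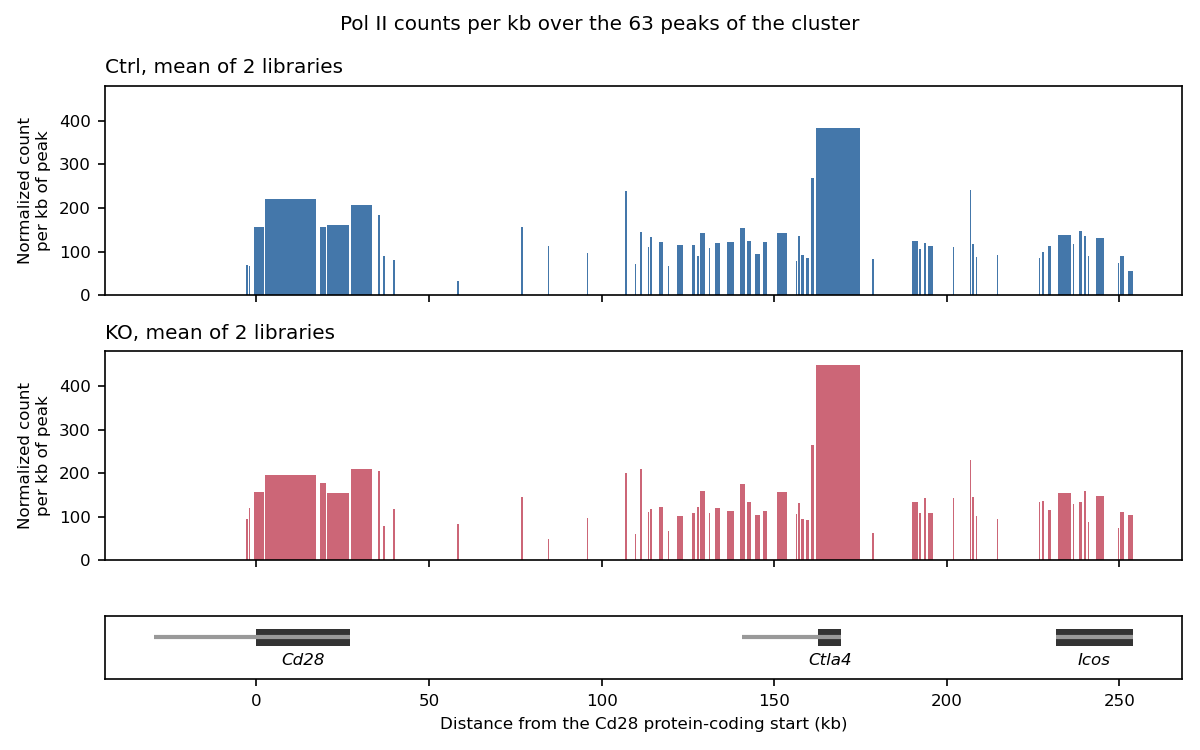
Bars give the mean normalized Pol II count per kb of each of the 63 peaks in 2 Ctrl (blue) and 2 KO (red) libraries, drawn at the width of the peak against distance from the Cd28 protein-coding start in kb; black boxes are the protein-coding genes and grey lines their longer non-coding transcripts. The Ctla4 domain stands highest in both genotypes, and Icos has no domain of comparable height.

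Icos looked different. No peak covered its start site: the nearest peak upstream ended 108 bp before it, and the nearest downstream began 576 bp after it. That downstream peak (chr1:60978503-60982230, 3728 bp, in an intron) was the highest of the gene, with normalized counts of 586 and 448 in Ctrl against 592 and 560 in KO, or 147 per kb, above 70.9% of all peaks. Of the other Icos peaks the longest, of 2227 bp in an intron (chr1:60989610-60991836), held 19.5% of the count of the gene. It also lay inside another annotated gene, Gm37039, so its reads cannot be credited to Icos alone.

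Summed over the peaks of each gene and divided by their length, Ctla4 had 293 and 236 normalized counts per kb in Ctrl and 315 and 288 in KO. Cd28 had 219 and 161 per kb in Ctrl and 209 and 146 in KO. Icos had 133 and 110 per kb in Ctrl and 138 and 135 in KO. The order Ctla4, Cd28, Icos therefore held in each library, and the ranges of the 3 genes did not overlap. The interval upstream of Ctla4 had 140 to 154 per kb of peak and that upstream of Icos 103 to 128. These levels compare peaks that were called on the same libraries, so they describe occupied DNA alone. With peaks clipped at the borders, they covered 60.7% of Ctla4 with its upstream 3 kb, 48.6% of Icos and 44.4% of Cd28, against 19.4% of the interval after Cd28 and 21.8% of that after Ctla4. The bounds of Cd28 and Ctla4 include longer non-coding transcripts, and those of Icos do not. Cd28 is annotated from 60716800, its protein-coding start is at 60746358, and its first peak began at 60743354. These percentages therefore do not rank the coding parts of the 3 genes.

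Sequences are shown for the start of the Ctla4 domain and for the most occupied peak between Ctla4 and Icos, because Pol II was measured there outside the coding parts of the genes. Of the 3 genes, 1 (Ctla4) had an entry in the RefSeq promoter table of GRCm38.p6. Its 250 bases before the start (chr1:60908775-60909024, plus strand) lie within the Ctla4 domain. The peak between Ctla4 and Icos (chr1:60936243-60938065), which overlaps no annotated gene, is represented by its central 300 bases, chr1:60937005-60937304, on the plus strand of GRCm38.p6. Capitals mark GGAAA (the core bound by NFAT, read as TTTCC on the other strand) and, in the last sequence, CCAAT.
Ctla4 promoter: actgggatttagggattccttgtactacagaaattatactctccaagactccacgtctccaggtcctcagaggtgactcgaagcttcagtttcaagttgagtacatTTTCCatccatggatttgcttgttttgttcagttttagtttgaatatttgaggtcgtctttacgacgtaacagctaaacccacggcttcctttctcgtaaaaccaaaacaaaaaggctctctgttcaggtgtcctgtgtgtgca
Peak between Ctla4 and Icos: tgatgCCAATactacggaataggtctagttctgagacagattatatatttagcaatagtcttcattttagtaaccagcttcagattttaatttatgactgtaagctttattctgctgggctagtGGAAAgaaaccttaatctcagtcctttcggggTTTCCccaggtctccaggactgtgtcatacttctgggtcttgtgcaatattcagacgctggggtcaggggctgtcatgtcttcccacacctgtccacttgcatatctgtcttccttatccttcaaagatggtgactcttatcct

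GGAAA occurred 1 time in the Ctla4 promoter and 2 times in the peak between Ctla4 and Icos, counting both strands. It was common: 55.6% of all promoter windows of 250 bases and 55.2% of the central 300 bases of all peaks held at least 1. CCAAT, found 1 time between Ctla4 and Icos, was held by 28.8% of peak centres. Neither sequence held the AP-1 letters TGANTCA, the STAT letters TTCNNNGAA, the forkhead letters TGTTTAC, the RUNX letters TGTGGT, the TATA box letters TATAAA or the GC box letters GGGCGG on either strand. In all promoter windows these occurred in 6.75%, 7.01%, 3.16%, 14.0%, 12.4% and 32.7%, and in all peak centres in 8.81%, 7.11%, 3.59%, 24.4%, 9.46% and 15.05%, in the same order. TATAAA did occur 41 bases into the transcribed part of Ctla4, counted from 1 at the start. The centre of a merged peak is not its summit, and a match is no more than a run of letters.

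Differences between KO and Ctrl were tested across all peaks with the DESeq2 Wald test, with library size taken as the median ratio over peaks, and ± denotes the SE of a log2 fold change (KO over Ctrl) throughout. Over all 56615 peaks, 0 (0%) passed an adjusted p-value of 0.05 and 864 had an unadjusted p-value under 0.05. By edgeR, 27 passed and 2057 had an unadjusted p-value under 0.05. In the cluster, 0 of 63 peaks passed by either tool and 1 had an unadjusted p-value under 0.05 by each. Of the 63 peaks, 39 (61.9%) had a positive and 24 a negative log2 fold change, where 48.9% of all peaks were positive. The median was 0.04 against -0.01 over all peaks. Both KO libraries lay above both Ctrl libraries in 10 of 63 peaks, where 16.2% of all peaks did so, and below them in 3, where 16.1% did so.

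Ctla4 had summed normalized counts of 7025 (Ctrl 1), 5666 (Ctrl 2), 7549 (KO 1) and 6920 (KO 2). The KO libraries were the higher within each library number, but the labels do not say that a number pairs libraries. KO 2 lay below Ctrl 1, so the groups overlapped. In bulk nuclei, a difference in the share of cells that use a gene and one in occupancy per cell cannot be told apart. The log2 fold change was 0.19 ± 0.14 (DESeq2 unadjusted p = 0.190, adjusted p = 1.00), with a 95% interval from 0.937-fold to 1.39-fold. The Ctla4 domain alone had 5379 and 4286 in Ctrl against 5778 and 5472 in KO. Here both KO libraries exceeded both Ctrl libraries, as in 16.2% of all peaks, and the log2 fold change was 0.22 ± 0.18 (DESeq2 unadjusted p = 0.222, adjusted p = 1.00). The value depended on 1 library, being 0.06 without Ctrl 2 and 0.40 without Ctrl 1 for the domain, and 0.04 and 0.36 for the gene sum. The 10 other Ctla4 peaks all lay upstream of the coding start, over a longer non-coding transcript, and none had an unadjusted p-value under 0.05.

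Icos had summed normalized counts of 1646 (Ctrl 1), 1356 (Ctrl 2), 1709 (KO 1) and 1671 (KO 2). Both KO libraries exceeded both Ctrl libraries, though KO 2 was above Ctrl 1 by less than the difference between the Ctrl libraries, and 15.2% of all genes were ordered in this way. The log2 fold change was 0.17 ± 0.15 (DESeq2 unadjusted p = 0.272, adjusted p = 1.00), with an interval from 0.912-fold to 1.39-fold, and it was 0.04 without Ctrl 2 and 0.33 without Ctrl 1.

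Cd28 had summed normalized counts of 5791 (Ctrl 1), 4267 (Ctrl 2), 5528 (KO 1) and 3871 (KO 2). The libraries separated by number and not by genotype: both libraries numbered 1, which were the deeper, exceeded both numbered 2, and the part of depth in this was not tested. The log2 fold change was -0.10 ± 0.19 (DESeq2 unadjusted p = 0.602, adjusted p = 1.00), with an interval from 0.726-fold to 1.20-fold. Its sign turned without Ctrl 1 (0.15) or KO 2 (0.14), whereas it was -0.30 without Ctrl 2 and -0.38 without KO 1. The peak over the Cd28 start (chr1:60745752-60748582) had 514 and 373 in Ctrl against 500 and 388 in KO (0.00 ± 0.24), and the domain behind it 3787 and 2658 in Ctrl against 3445 and 2281 in KO (-0.17 ± 0.23). Neither moved beyond the difference between libraries of the same genotype. None of the 3 genes passed in the test over all genes, where 0.096% (13 of 13542) passed the adjusted threshold and 2.58% had an unadjusted p-value under 0.05.

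**Figure D2:**
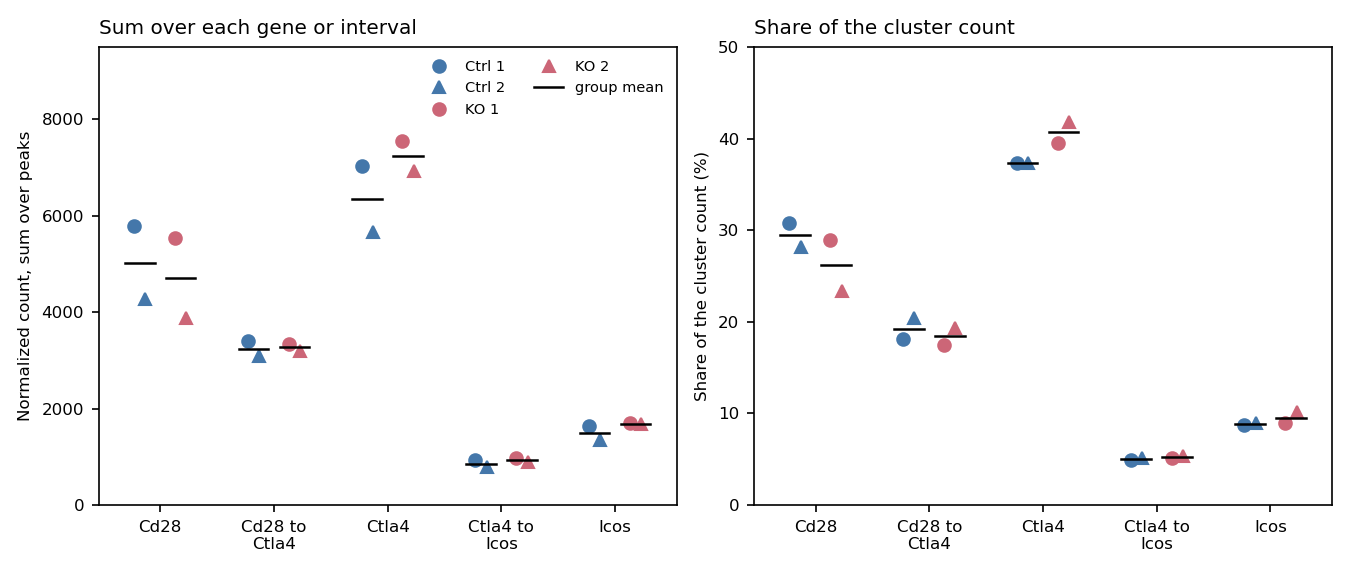
Left, summed normalized count of each gene and interval in every library; right, its share of the cluster count in percent. Circles are library 1 and triangles library 2, blue is Ctrl and red is KO, and lines are group means. Cd28 separates by library number, and the Ctla4 share is higher in both KO libraries (39.5% and 41.8%) than in both Ctrl libraries (37.4% each). Shares within a library are not independent of each other.

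The intervals gave no larger differences. Between Cd28 and Ctla4 the summed normalized counts were 3396 and 3089 in Ctrl against 3346 and 3195 in KO (0.01 ± 0.14, DESeq2 unadjusted p = 0.929), with an interval from 0.835-fold to 1.22-fold. Between Ctla4 and Icos they were 933 and 781 in Ctrl against 973 and 882 in KO (0.11 ± 0.17, DESeq2 unadjusted p = 0.514), from 0.854-fold to 1.37-fold. Among 3663 intervals between neighbouring genes, 0 (0%) passed the adjusted threshold, 86 had an unadjusted p-value under 0.05, and edgeR called 2. The domain just beyond the Cd28 3′ end had 1285 and 1188 in Ctrl against 1242 and 1243 in KO (0.01 ± 0.18). As a percentage of the Cd28 sum this was 22.2 and 27.8 in Ctrl against 22.5 and 32.1 in KO, so it did not follow Cd28 from library to library. The highest peak between Ctla4 and Icos had 255 and 197 in Ctrl against 250 and 237 in KO (0.10 ± 0.26).

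The peak with the lowest p-value in the cluster was at the 3′ end of Icos. It lay in the untranslated part of the last exon (chr1:60998888-61000203, 1316 bp), with raw counts of 104 and 53 in Ctrl against 217 and 85 in KO. The normalized counts were 74.8 and 73.0 in Ctrl against 129 and 145 in KO, so that both KO libraries were higher, as in 16.2% of all peaks. The log2 fold change was 0.88 ± 0.34 (DESeq2 unadjusted p = 0.00903, adjusted p = 1.00), and 0.862% of all peaks had an unadjusted p-value under 0.05 with KO higher. The change kept its size, between 0.81 and 0.97, when each library was left out, but the unadjusted p-value was then above 0.05 each time (0.0660 to 0.0977). It held 6.60% of the Icos count. The adjoining peak over the end of the coding sequence (chr1:60996654-60997757) had 94.2 and 105 in Ctrl against 89.7 and 157 in KO (0.28 ± 0.36), and its groups overlapped.

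**Figure D3:**
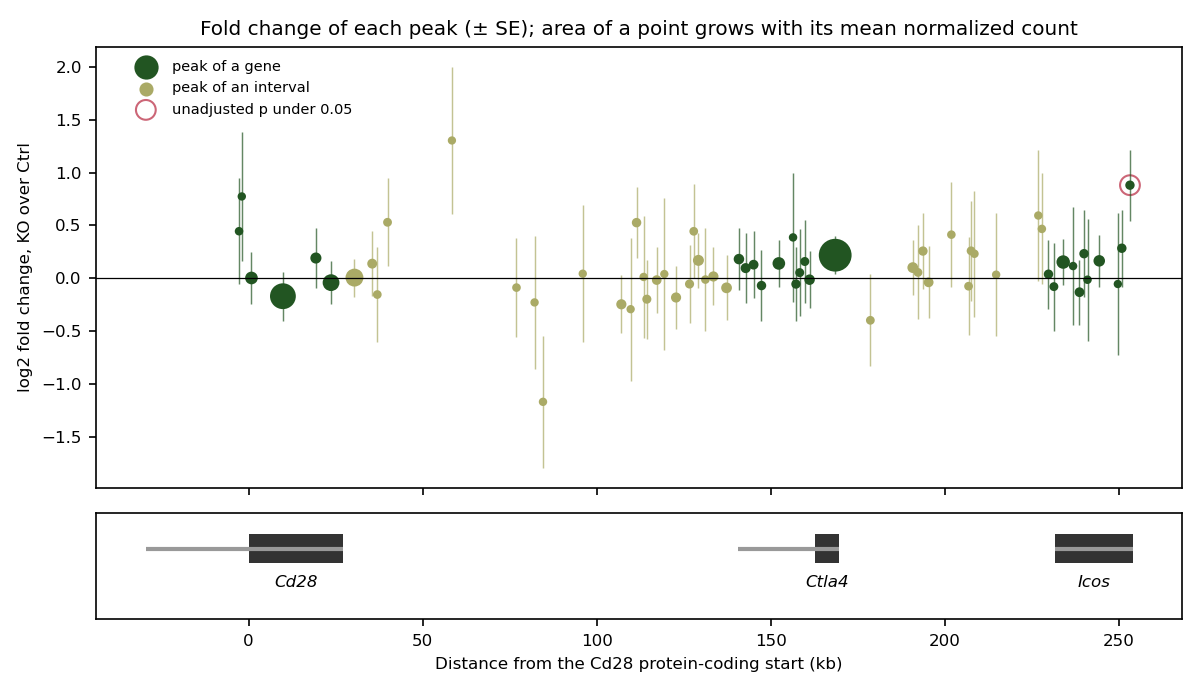
Log2 fold change of each of the 63 peaks (KO over Ctrl, ± SE) against distance from the Cd28 protein-coding start in kb, with larger points for higher mean counts. The large points lie between -0.17 and 0.22, the wide scatter comes from low peaks, and the circled Icos peak (0.88) is the one with an unadjusted p-value under 0.05.

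The most extreme fold changes belonged to low peaks between Cd28 and Ctla4. A peak 58397 bp from the Cd28 start had 13.7 and 11.0 in Ctrl against 23.8 and 39.2 in KO (1.30 ± 0.70, DESeq2 unadjusted p = 0.0605), and one 84562 bp from it had 28.8 and 53.7 in Ctrl against 21.4 and 13.6 in KO (-1.17 ± 0.63, DESeq2 unadjusted p = 0.0616). Both were chosen after their values were seen. Neither difference could be told from counting error and library spread at this depth. The 14 cluster peaks with a mean normalized count of at least 200 ran only from -0.17 to 0.22, with 10 positive, a median of 0.12 and none with an unadjusted p-value under 0.05. Over all 9330 peaks of that height, the median was -0.04 and 40.6% were positive. The groups did not overlap in 1 of the 14 peaks, where they did not in 30.9% of all peaks of that height.

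Ratios within a library do not depend on its scaling, so the genes were also compared with each other. The log2 ratio of Ctla4 to Cd28 counts was 0.28 and 0.41 in Ctrl against 0.45 and 0.84 in KO, higher in both KO libraries by a mean of 0.30, which was 0.11 without KO 2 and 0.49 without KO 1. The difference between Ctrl 2 and KO 1 was far smaller than that between the KO libraries. The ratio of Icos to Ctla4 was nearly the same in every library, at -2.09 and -2.06 in Ctrl and -2.14 and -2.05 in KO. The ratio of Icos to Cd28 was -1.81 and -1.65 in Ctrl and -1.69 and -1.21 in KO, which overlapped. An exact two-sided permutation test of 2 against 2 libraries cannot go below p = 0.333, which was reached for Ctla4 to Cd28, while Icos to Cd28 gave 0.667 and Icos to Ctla4 gave 1.00.

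As shares of the cluster count, Ctla4 held 37.4% in both Ctrl libraries and 39.5% and 41.8% in KO (exact permutation p = 0.333), a difference of 3.30 percentage points. Cd28 held 30.8% and 28.1% in Ctrl against 28.9% and 23.4% in KO (exact permutation p = 0.667), a difference of -3.31 percentage points. The shares are parts of the same total, so they are not independent. KO 2 had both the highest Ctla4 share and the lowest Cd28 share, and the part of Cd28 in the Ctla4 difference was not tested. Icos held 8.76% and 8.94% in Ctrl against 8.95% and 10.1% in KO (exact permutation p = 0.333), where KO 1 and Ctrl 2 were almost equal and the difference of 0.67 percentage points was 0.094 without KO 2 and 1.25 without KO 1. The interval after Cd28 held 18.1% and 20.4% in Ctrl against 17.5% and 19.3% in KO, and that after Ctla4 held 4.97% and 5.15% in Ctrl against 5.09% and 5.33% in KO (exact permutation p = 0.667 for each). The summed cluster overlapped between groups, with normalized counts of 18791 and 15159 in Ctrl against 19106 and 16539 in KO.

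The share of each gene's count in peaks centred within 3 kb of a start site was compared as a measure of the promoter against the gene body. For Cd28 it was 9.97% and 9.85% in Ctrl against 10.5% and 12.2% in KO. For Icos it was 45.5% and 47.4% in Ctrl against 44.3% and 45.0% in KO. In both genes the groups did not overlap, in opposite directions, at the smallest p-value of this design (exact permutation p = 0.333). How many of all genes were ordered in this way by promoter share was not computed. For gene sums, the groups did not overlap in 34.1% of all genes. The difference for Cd28, 1.46 percentage points, was 0.64 without KO 2, 2.28 without KO 1 and 0.72 with a window of 1 kb, and that for Icos, -1.77, was -0.82 without Ctrl 2, -2.72 without Ctrl 1 and -0.86 with that window. Most of the Icos share came from the intron peak that began 576 bp after the start and held 34.3% of the gene count. The 1 kb window left 1 Icos peak, which ended 108 bp before the start. Its normalized counts overlapped between groups (56.8 and 82.7 in Ctrl, 58.8 and 73.2 in KO). For Ctla4 the share was 9.80% and 10.3% in Ctrl against 9.96% and 8.71% in KO, but it leaves out the domain that covers the start itself, whose midpoint lies further than 3 kb downstream, so it says little of the promoter. It also counts peaks near the start of the longer non-coding transcript, such as chr1:60886583-60887837, which ended 21188 bp before the coding start.

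The genes on either side were examined to see whether a difference extended beyond the cluster. These were the nearest 5 protein-coding genes with a peak upstream (Carf, Nbeal1, Cyp20a1, Abi2 and Raph1, from 150 to 563 kb away) and downstream (Ino80d, Ndufs1, Eef1b2, Klf7 and Creb1, from 1958 to 3532 kb away). None of the 10 passed by DESeq2 or edgeR, and by both tools 0 had an unadjusted p-value under 0.05. Raph1, an actin regulator and the nearest upstream, had 275 and 218 in Ctrl against 213 and 209 in KO (-0.23 ± 0.25). Ino80d, a subunit of the INO80 chromatin remodeller and the nearest downstream, had 439 and 351 in Ctrl against 389 and 303 in KO (-0.19 ± 0.22). The lowest value was that of Creb1, a transcription factor that responds to cyclic AMP (1927 and 1514 in Ctrl, 1609 and 1259 in KO, -0.26 ± 0.18), and the highest that of Abi2, a subunit of the WAVE complex (69.0 and 52.4 in Ctrl, 72.5 and 57.9 in KO, 0.11 ± 0.42). The median of the 10 was -0.17 against -0.02 over all genes. Ndufs1 and Eef1b2 start beside each other, share their peaks and have identical values (-0.22 ± 0.24).

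**Figure D4:**
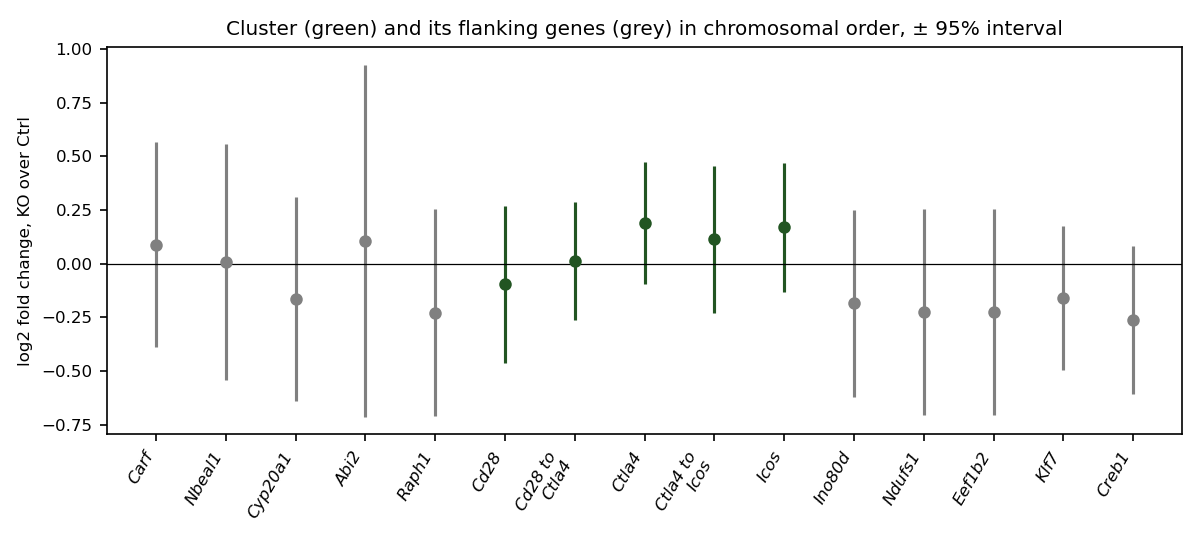
Log2 fold change (KO over Ctrl) with its 95% interval for the 3 genes and 2 intervals of the cluster (green) and 5 flanking genes on each side (grey), in chromosomal order and not to scale. Every interval includes 0.

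Ligands and partners of the receptors were then examined, in 5 lists with 51 genes, all of which had a peak. By DESeq2, 0 of 51 passed over all genes and 0 had an unadjusted p-value under 0.05, and by edgeR 0 passed and 2 had one (Bcl10 and Ppp2r1a), where 4.45% of all genes had one by edgeR. The median log2 fold change over the 51 was -0.02, as over all genes (-0.02), and 22 of the 51 (43.1%) were positive, against 45.5% of all genes.

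Of the ligands, Cd80 had 189 and 215 in Ctrl against 188 and 233 in KO (0.05 ± 0.26), Cd86 had 269 and 318 in Ctrl against 212 and 336 in KO (-0.12 ± 0.26), and Icosl lay between them (0.05 ± 0.23). The 17 genes of CD28 and ICOS signalling had a median of -0.01 with 8 positive. Their extremes were Bcl10, an adaptor of NF-κB signalling (1747 and 1506 in Ctrl, 1413 and 1219 in KO, -0.30 ± 0.16), and Tbk1, a kinase recruited by ICOS (781 and 864 in Ctrl, 886 and 979 in KO, 0.18 ± 0.16). In each of these the groups did not overlap, as in 20 of the 51 list genes and 34.1% of all genes.

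The 13 genes for CTLA-4 trafficking and phosphatase partners had a median of -0.08 with 4 positive. Ppp2r1a, the scaffold subunit of the phosphatase PP2A, was the lowest (1650 and 1764 in Ctrl, 1388 and 1465 in KO, -0.26 ± 0.14), and Trat1, a transmembrane adaptor, the highest on a low count (49.6 and 35.8 in Ctrl, 68.3 and 30.7 in KO, 0.24 ± 0.52). Lrba, which protects CTLA-4 from lysosomal degradation, had 661 and 660 in Ctrl against 584 and 634 in KO (-0.12 ± 0.17). The 5 regulators of RNA stability and ubiquitination had a median of 0.03, from Zc3h12a, an RNase also called Regnase-1 (-0.16 ± 0.12), to Rc3h2, a Roquin protein (0.10 ± 0.29). Rc3h1, which encodes Roquin-1, a repressor of Icos mRNA, had 535 and 486 in Ctrl against 573 and 480 in KO (0.05 ± 0.19). Of the 13 transcription factors, 5 were positive with a median of -0.03. Their range was from Rel, an NF-κB subunit needed for Treg development (5100 and 3625 in Ctrl, 4026 and 2981 in KO, -0.32 ± 0.18), to Irf4, a factor of effector Treg cells (2030 and 1602 in Ctrl, 2278 and 1918 in KO, 0.21 ± 0.16). Foxp3 had 1931 and 1634 in Ctrl against 1873 and 1620 in KO (-0.03 ± 0.16).

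**Figure D5:**
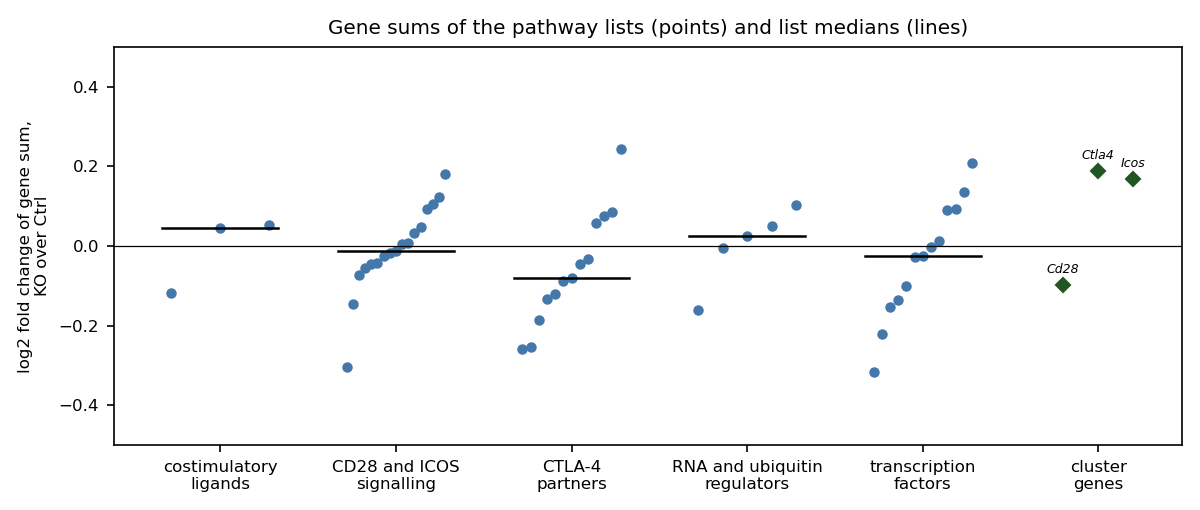
Log2 fold change (KO over Ctrl) of the gene sum of each gene in the 5 lists, sorted within a list, with the list median as a line, and of the 3 genes of the cluster (green diamonds). All points lie between -0.32 and 0.24, and the 3 receptor genes fall inside the range of their partners.

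Among 10711 genes with a mean normalized count of at least 100, those whose profile over the 4 libraries was nearest to each receptor gene were found by the root mean square difference of centred log2 counts. Nearest to Ctla4 were Ctsb, which encodes cathepsin B, at 0.0047, and Gm5149 and Gm30382, which share their peaks, at 0.0077 each. Nearest to Icos were Ubxn1 (0.0030), Lmln (0.0035) and the ribosomal protein gene Rpl34 (0.0057), and nearest to Cd28 were Stx17 (0.0061), Pkp4 (0.012) and Gm11427 (0.012). Between the members the difference was 0.036 for Ctla4 and Icos, 0.21 for Ctla4 and Cd28 and 0.23 for Icos and Cd28. With 4 libraries and this many genes, close matches are numerous, and they are given as a description.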

How the data were processed

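Pol II CUT&Tag was performed on 2 Ctrl and 2 KO libraries. The 1 IgG library listed was not analysed here. The authors mapped reads to mm10 with Bowtie2, kept unique reads, removed duplicates and used MACS2 (IgG as background) to call peaks, which bedtools merged. The deposited table holds raw counts per merged peak. Versions were not given in the sources used here. Peaks were therefore selected on the libraries compared.

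Peaks were assigned by midpoint to GENCODE M21 protein-coding genes with 3 kb upstream, or else to non-coding genes or the interval between genes, and counts were summed. Start positions are counted from 1. Total counts were 11331274 (Ctrl 1), 5624680 (Ctrl 2), 13351007 (KO 1) and 4489646 (KO 2). Counts were compared with DESeq2 1.42.0 in R 4.3.3, with genotype as the only term, Benjamini-Hochberg adjustment at 0.05 and median-of-ratios size factors from the peaks (1.39, 0.726, 1.68 and 0.587), which were also used for the gene and interval sums. Shares and ratios were compared with exact permutation tests (scipy 1.17.1). The test was checked on simulated counts with 200 features changed by a log2 of 2, more than any peak of the cluster. DESeq2 recovered 78.5% of the changed peaks and 96% of the changed genes. Of the peak calls, 8.72% were false by DESeq2 and 15.4% by edgeR. Recovery of changes as small as those of the 3 genes was not tested. Alternatives were edgeR 4.0.16, other size factors, a minimum mean count of 10, a replicate block, other gene bounds and leaving out each library.

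The members and gene lists were chosen with earlier results of these data known. Genes and peaks were named by a rule: the 3 members, the highest peak, the start-site peak and any peak with an unadjusted p-value under 0.05 in each gene or interval, 5 flanking genes per side, the extremes of each list and the 3 nearest profiles per member. Some further peaks of Cd28, Icos and the intervals, and list genes such as Lrba, Rc3h1 and Foxp3, were named outside this rule. A sequence was planned for the peak at the 3′ end of Icos, but the peak between Ctla4 and Icos was shown instead. The sequence of a peak between Cd28 and Ctla4 is not reported here.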

Additional observations from a re-analysis of the deposited data

How the results depend on the processing

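With 2 libraries per group, leaving out 1 leaves a lone library that is assumed to vary like the others. The gene sums then ran from -0.38 to 0.15 for Cd28, 0.04 to 0.36 for Ctla4 and 0.04 to 0.33 for Icos, and the intervals from -0.054 to 0.090 after Cd28 and -0.0057 to 0.26 after Ctla4 (log2). Single peaks ran from -0.20 to 0.26 at the Cd28 start, -0.50 to 0.11 in the Cd28 domain, -0.049 to 0.072 beyond its end, -0.066 to 0.31 between Ctla4 and Icos and -0.022 to 0.37 for the highest Icos peak. The count of cluster peaks with an unadjusted p-value under 0.05 was 0 in each of these fits, from 0 to 0. With promoter peaks alone Cd28 turned to 0.081, and with a promoter window of 1 kb the promoter share differences were -0.019 percentage points for Ctla4 in place of -0.72, 0.72 for Cd28 in place of 1.46 and -0.86 for Icos in place of -1.77. In that window Ctla4 had 1 peak, at the start of its longer non-coding transcript and 21188 bp before the coding start. Leaving out 1 library, the log2 ratios ran from 0.11 to 0.49 for Ctla4 to Cd28, 0.041 to 0.52 for Icos to Cd28 and -0.065 to 0.028 for Icos to Ctla4, and the share of the cluster count in Cd28 from -6.08 to -0.55 percentage points. The causes were not tested. Under edgeR, other size factors, the minimum count and other gene bounds, no call changed for the 3 genes, and under edgeR, TMM or total-count size factors and the minimum count, which were run for them, none changed for the intervals or the named peaks.

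The labels give the libraries numbers but do not say that a number pairs them. Deviations of same-numbered libraries correlated at 0.262 across peaks. With a replicate block, Cd28 was -0.10, Ctla4 0.19 (DESeq2 unadjusted p = 0.0031, adjusted p = 0.0648), Icos 0.17 (DESeq2 adjusted p = 0.501) and the intervals 0.01 and 0.12. In that fit 2 cluster peaks had an unadjusted p-value under 0.05, as did 911 of all 56615 peaks and 621 of all 13542 genes. Adjusted calls over all genes rose from 13 to 122. edgeR called 0 genes where DESeq2 called 13, promoter peaks alone gave 5, gene bodies without the upstream window 7, and leaving out a library 0 to 4. Size factors from the gene sums and protein-coding transcripts alone, both added after the data were seen, gave 0.21 and 0.21 for Ctla4. At the lowest depth (KO 2), low peaks could show large changes only.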
